A study of Mus musculus with 4 samples.

Results

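The genes described here encode the Tal1 transcription factor complex and are Tal1, Lmo1, Lmo2, Lmo4, Ldb1, Gata3 and Runx1, 7 of the 31053 genes counted. They were chosen by name, as the subunits of the complex and 2 further LIM-only genes. No rule on their values was used, but earlier results of these data were known. Transcripts were counted cell by cell in thymi of 4 FVB/N mice, by 3′ sequencing in droplets (10x Genomics). The WT library came from a wild type mouse at 6 weeks of age and the preleukemic (PL) library from a Tal1/Lmo2 transgenic mouse at 6 weeks. The leukemic group held T-ALL#1 and T-ALL#2, which are T-cell acute lymphoblastic leukemias (T-ALL) in thymi of Tal1/Lmo2 mice aged 3 months. The labels name no treatment. In this line both transgenes are driven by the proximal Lck promoter, which is active in thymocytes, so the 3 transgenic libraries share both transgenes and WT has neither. Each library is 1 animal, and age and leukemia cannot be told apart.

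Cells with more than 500 genes and under 10% mitochondrial unique molecular identifiers (UMIs) were kept. The T-ALL#2 matrix holds every barcode, and 2700 of them were read as cells before this filter, those with no fewer UMIs than 1/10 of the UMIs at percentile 99 in the 10000 deepest barcodes. This left 17544 cells, 4220 in WT, 5576 in PL, 5773 in T-ALL#1 and 1975 in T-ALL#2, with totals of 24042062 to 70745712 UMIs. The median depth per cell was 3800.5, 4888, 8742 and 17581 UMIs in the same order. The 5 T cell markers (Cd3d, Cd3e, Cd3g, Trbc1 and Trbc2) were detected in every library, at 5504 to 10418 counts per 1e+06 UMIs (CPM) in sum. At most 9 barcodes were shared by a pair of libraries, or 0.253% of the cells of either. The WT and PL libraries went against their labelled sex. Both are labelled male, but Xist stood at 1380 and 1869 CPM, and 1 and 5 UMIs came from 4 Y-linked genes, of which T-ALL#2, also labelled male, held 4413 UMIs. Every contrast of preleukemic with WT levels below rests on these libraries, and tests within libraries are also given without PL. Levels are CPM of UMIs summed over the kept cells, with exact Poisson 95% intervals that cover counting error and not the spread between animals. Groups of 1, 1 and 2 libraries allow no test, so fold differences between libraries are described and counted as past 2-fold or not.

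Tal1 is a basic helix-loop-helix factor that is normally silenced as thymocytes commit to the T lineage, and its ectopic expression is a common event in human T-ALL. It binds E-box DNA as a heterodimer with E proteins (Tcf3, Tcf12 and Tcf4), and LIM-only proteins of the Lmo family link it to Ldb1, a dimerizing adaptor that lets several DNA-bound complexes join. GATA and RUNX factors sit in the same complexes on neighbouring motifs, and Gata3 and Runx1 are the members of these families that thymocytes need from their earliest stages.

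The reference promoters of 3 genes are shown because Tal1 is the member that separated the libraries most, Runx1 was the endogenous member with the highest preleukemic level relative to WT among those not at trace level, and Lck lends its proximal promoter to the transgenes. They are 300-base windows from RefSeq on build GRCm38.p6, from 250 bases before a transcription start to 50 after it, on the gene's strand, and show the mouse reference genome and not the FVB/N strain or the transgene. Capitals mark matches on either strand to CAGATG (an E-box that Tal1 with E proteins binds), AGATAA, which GATA factors bind, or TGTGGT, which RUNX factors bind.
Tal1 upstream start (chr4:115056176-115056475, plus strand): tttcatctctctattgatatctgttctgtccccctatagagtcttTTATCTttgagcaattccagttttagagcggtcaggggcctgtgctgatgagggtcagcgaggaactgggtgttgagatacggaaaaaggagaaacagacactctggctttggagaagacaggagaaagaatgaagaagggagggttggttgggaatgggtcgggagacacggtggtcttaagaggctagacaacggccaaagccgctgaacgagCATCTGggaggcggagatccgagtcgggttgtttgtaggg
Runx1 upstream start (chr16:92826025-92826324, minus strand): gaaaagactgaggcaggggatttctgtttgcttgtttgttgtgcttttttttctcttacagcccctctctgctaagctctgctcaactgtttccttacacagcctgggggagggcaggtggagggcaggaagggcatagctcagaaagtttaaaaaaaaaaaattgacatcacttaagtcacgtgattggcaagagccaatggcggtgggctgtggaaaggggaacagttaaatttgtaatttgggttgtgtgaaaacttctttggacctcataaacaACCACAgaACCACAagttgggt
Lck downstream start (chr4:129558323-129558622, minus strand): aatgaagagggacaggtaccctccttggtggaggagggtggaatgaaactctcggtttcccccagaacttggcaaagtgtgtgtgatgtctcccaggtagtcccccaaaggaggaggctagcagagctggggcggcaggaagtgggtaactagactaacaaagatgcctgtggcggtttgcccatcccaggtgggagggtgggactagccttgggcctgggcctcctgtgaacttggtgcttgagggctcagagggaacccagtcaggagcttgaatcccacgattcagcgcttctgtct
The Tal1 window held AGATAA on the other strand 205 bases before the start and CAGATG on the other strand 11 bases after it. In the Runx1 window TGTGGT lay on the other strand 29 and 37 bases after the start. The Lck window held none of the 3 motifs. Of 13 windows found for 6 of the members, 3 held a match, the third being an Ldb1 window with 2 copies of AGATAA, and Lmo2 had no window in the table. Over all 32851 mouse windows of this length, CAGATG was found in 17.2%, AGATAA in 11.2% and TGTGGT in 16.8%, so these matches are common and describe the sequence alone.

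Tal1 (ENSMUSG00000028717, chromosome 4, 115056426 to 115071755, plus strand, GRCm38) was detected in the 3 transgenic libraries and not in WT. WT held 0 Tal1 UMIs (upper limit 0.153 CPM), PL 410 CPM (403 to 416), T-ALL#1 68.3 CPM (66.4 to 70.2) and T-ALL#2 234 CPM (229 to 239). PL was thus highest, and T-ALL#1 and T-ALL#2 were 6.00-fold and 1.75-fold lower. The 2 leukemias differed from each other by 3.43-fold (3.31 to 3.55), a gap between single animals that is larger than that between T-ALL#2 and PL. The 95% interval of the ratio of PL to WT, which covers counting error only, began at 2669-fold. The 3′ sequence of the transgene is not given in the sources used here, so UMIs of the transgene and of the endogenous gene were not told apart. Of the markers of other cell types that use Tal1, the 4 erythroid ones summed to 1.24 to 3.87 CPM in the transgenic libraries (84.7 in WT, where Tal1 was at 0) and the 3 megakaryocyte ones to 0.184 to 0.318 CPM with Gp9 at 0. The 4 mast cell or progenitor markers (Kit, Cd34, Flt3 and Fcer1a) summed to 3.54 CPM in WT, 8.81 in PL, 0.269 in T-ALL#1 and 0.359 in T-ALL#2, with Fcer1a at 0 throughout. Kit made up most of the sum in PL, at 8.25 against 2.41 CPM in WT, and was thus highest where Tal1 was highest. The part of these cells in the Tal1 levels was not tested.

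**Figure D1:**
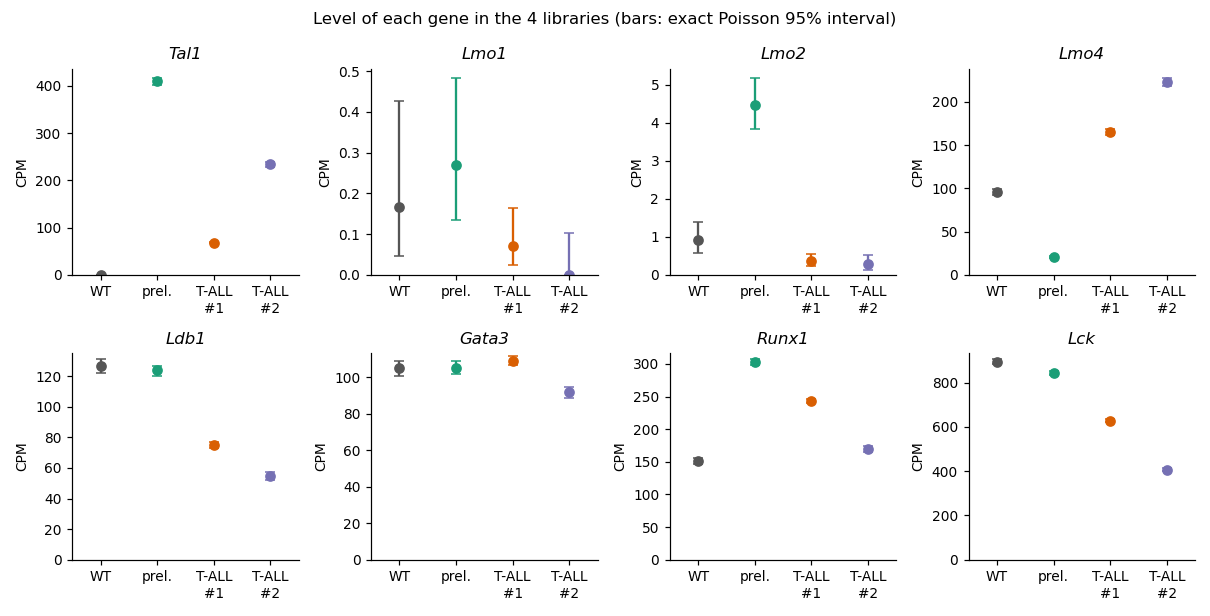
Levels of the 7 genes and of Lck in the 4 libraries, in CPM of summed UMIs, each panel on its own axis from 0, with exact Poisson 95% intervals as bars. Tal1 is absent from WT and highest in PL, Lmo4 is lowest in PL at 20.4 CPM and highest in T-ALL#2 at 223 CPM, and Gata3 stays between 91.8 and 109 CPM.

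Tal1 was spread over most preleukemic and T-ALL#2 cells. At least 1 Tal1 UMI was found in 0 of 4220 WT cells (Clopper-Pearson upper limit 0.0874%), in 82.3% of PL, 39.8% of T-ALL#1 and 90.8% of T-ALL#2. Were each cell of a library to hold Tal1 at the same CPM, its depth would give shares of 83.6%, 48.7% and 93.3%, so the observed shares lay just under those of an even level in 2 of the libraries and further under it in T-ALL#1. With every cell thinned to 2000 UMIs the shares were 54.7%, 13.8% and 38.3%. The variance of thinned Tal1 UMIs per cell over their mean was 1.51, 1.20 and 1.41, where pure counting gives about 1. The means were 0.983, 0.161 and 0.575 UMIs, and the measure can rise with the mean, so it does not rank the libraries. In cells that should lack Tal1, which held B cell or myeloid markers and no UMI of Cd3d, Cd3e or Cd3g, Tal1 was found in 1 of 13 preleukemic, 0 of 6 T-ALL#1 and 1 of 6 T-ALL#2 cells, with median depths of 3933, 4479 and 4659 UMIs. In T-ALL#2 the barcodes under 100 UMIs, which hold free RNA, carried Tal1 at 567 CPM, above the 234 CPM of the cells, so a single Tal1 UMI does not mark a T-ALL#2 cell as expressing it.

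The LIM-only genes went different ways. Lmo2 (ENSMUSG00000032698, chromosome 2, 103957986 to 103981878), the bridging oncogene that names the line, was near the detection limit throughout, with 22 UMIs in WT, 183 in PL, 26 in T-ALL#1 and 10 in T-ALL#2. As CPM these were 0.915 (0.573 to 1.39), 4.48 (3.85 to 5.18), 0.368 (0.240 to 0.538) and 0.276 (0.132 to 0.508). The preleukemic level was 4.90-fold that of WT (3.14 to 8.0), and the leukemias lay 12.2-fold and 16.2-fold below it. Little Lmo2 was thus counted in any library, and the files do not tell whether reads of the transgene fall under this gene. The preleukemic Lmo2 UMIs came from 169 cells, of which 146 also held Tal1 and 140 held Trdc, a gamma-delta T cell receptor gene detected in 81.8% of all PL cells. Cells without coreceptor or cycling genes made up 84 of these 169 cells and 48.7% of the library. In the leukemias Lmo2 was partly in the few cells with B cell or myeloid markers, which gave 6 of 26 UMIs in T-ALL#1 and 5 of 10 in T-ALL#2.

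Lmo1 (ENSMUSG00000036111, chromosome 7, 109138572 to 109175207), a close relative of Lmo2 that is also a T-ALL oncogene, had 4, 11, 5 and 0 UMIs in the order of the libraries and no fold is drawn from them. Lmo4 (ENSMUSG00000028266, chromosome 3, 144188530 to 144205220), a LIM-only gene that binds Ldb1 and is expressed in many tissues, differed most between libraries among the members above trace level in WT. Its level was 95.7 CPM in WT (91.8 to 99.7), 20.4 in PL (19.1 to 21.9), 165 in T-ALL#1 (162 to 168) and 223 in T-ALL#2 (218 to 228). No interval overlapped another. The preleukemic level was 4.68-fold lower than that of WT (4.32 to 5.07), while T-ALL#1 and T-ALL#2 stood 8.07-fold (7.52 to 8.67) and 10.9-fold (10.2 to 11.7) above PL and 1.72-fold and 2.33-fold above WT. The share of cells with Lmo4 after thinning followed the same order, 16.3% in WT, 3.96% in PL, 35.6% in T-ALL#1 and 37.9% in T-ALL#2. Of the 4 members read this way (Tal1, Lmo4, Gata3 and Runx1), Lmo4 had the highest variance over mean within either leukemia. Its values were 1.43, 1.47, 1.94 and 1.88 in the order of the libraries. The means behind them were 0.207, 0.0488, 0.608 and 0.659 UMIs. Since the measure can rise with the mean, these values do not rank the libraries. The members nearest to Lmo4 in mean had lower values, Runx1 with 1.29 (mean 0.552, T-ALL#1) and Tal1 with 1.41 (mean 0.575, T-ALL#2).

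Ldb1 (ENSMUSG00000025223, chromosome 19, 46031570 to 46045214), the adaptor that the LIM-only proteins bind, was lower in both leukemias. It stood at 127 CPM in WT (122 to 131), 124 in PL (120 to 127), 75.3 in T-ALL#1 (73.3 to 77.3) and 54.7 in T-ALL#2 (52.3 to 57.1). The WT and preleukemic intervals overlapped, and the leukemias were 1.64-fold and 2.26-fold below PL. The thinned shares of cells were 25.2%, 27.3%, 16.3% and 13.0%.

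Gata3 (ENSMUSG00000015619, chromosome 2, 9857078 to 9890034), a zinc finger factor required throughout T cell development, differed least. It was 105 CPM in WT (101 to 109), 105 in PL (102 to 109), 109 in T-ALL#1 (107 to 112) and 91.8 in T-ALL#2 (88.7 to 95). The first 3 intervals overlapped and that of T-ALL#2 lay below them. The direction of T-ALL#2 against PL flipped with the scaling, since the ratio was 0.871 in CPM and 1.23 after TMM normalization (trimmed mean of M-values).

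Runx1 (ENSMUSG00000022952, chromosome 16, 92601466 to 92826149), which binds DNA together with Cbfb, was highest in PL. It stood at 151 CPM in WT (146 to 156), 303 in PL (298 to 308), 243 in T-ALL#1 (240 to 247) and 169 in T-ALL#2 (165 to 174). The preleukemic level was 2.01-fold that of WT (1.94 to 2.09), just past the 2-fold line, and became 1.72-fold when each cell was given the same weight. T-ALL#1 kept a level 1.61-fold that of WT, and T-ALL#2 was 1.12-fold above WT in CPM and 0.902-fold with each cell weighted equally, so its direction depends on the weighting. The thinned shares of cells were 25.8%, 44.8%, 38.5% and 27.4%.

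Counted as past 2-fold or not, 3 of 6 members compared were higher in PL than in WT (Tal1, Lmo2 and Runx1) and 1 was lower (Lmo4). Over the 11757 genes at 1 CPM or more in either library, 7.19% were higher and 8.42% lower. Tal1 and Lmo2 are also the genes of the transgenes, which WT lacks, so their places here are no result about the complex. Runx1 was the other higher member, at 2.01-fold. In both leukemias against PL, 1 of 6 members was higher (Lmo4), beside 4.97% of all genes, and 1 was lower (Lmo2), beside 15.1%. In both leukemias against WT, 1 of 5 members was higher (Tal1, again the gene of a transgene), beside 5.59%, and 0 were lower, beside 16.7%. TMM normalization moved the log2 ratios by 0.0509 for preleukemic over WT, by 0.259 for T-ALL#1 over preleukemic and by 0.501 for T-ALL#2 over preleukemic, and the median log2 ratio of all genes was -0.02, -0.19 and -0.52. Relative to that shift the ratios to PL in T-ALL#1 and then T-ALL#2 were 0.199 and 0.809 for Tal1, 9.65 and 15.5 for Lmo4, 0.727 and 0.625 for Ldb1, and 0.960 and 0.792 for Runx1.

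Among 18 further genes of the complex, 14 could be compared between PL and WT. Beside 7.19% of all genes higher and 8.42% lower, 4 of the 14 were past 2-fold higher and 0 lower. These were Lyl1, the closest relative of Tal1, at 20.8 against 0.666 CPM (31.2-fold), Cbfa2t3, a corepressor that joins Tal1 complexes, at 164 against 38.5 CPM (4.25-fold), Runx2 at 15.7 against 4.08 CPM (3.84-fold) and Myb at 580 against 251 CPM (2.31-fold). The same 4 genes were past 2-fold lower in both leukemias than in PL, together with Gata1 and Runx3, 6 of 14 in all, beside 15.1% of all genes. Lyl1 was 0.876 CPM in T-ALL#1 and 0.331 in T-ALL#2, and Runx2 was 0.438 and 0.386. Ssbp4, of the single-stranded DNA-binding proteins that stabilize Ldb1, was the 1 gene past 2-fold higher in both leukemias, at 123 and 138 CPM against 46.8. Over all genes 4.97% were. Against WT, 2 of 13 were past 2-fold lower in both leukemias, Runx2 and Runx3, beside 16.7% of all genes, and 0 were higher, beside 5.59%. Gata2 had 35 UMIs in PL and 0 elsewhere, and Lmo3 and Ldb2 had 0 in all libraries. The gamma-delta markers Trdc, Tcrg-C1 and Sox13 summed to 240 CPM in WT, 1437 in PL, 38.9 in T-ALL#1 and 151 in T-ALL#2. Like Lyl1, Cbfa2t3, Runx2 and Myb they were highest in PL, but they were lowest in T-ALL#1 and those genes in T-ALL#2. Surface staining in the paper, which reads receptor protein and not RNA, found no gain of gamma-delta cells in preleukemic thymi. Its single-cell data did hold a preleukemic cluster identified as gamma-delta T cells. The paper proposes that such transcripts come from unrearranged receptor genes. Markers of early progenitors (Il2ra, Cd44, Notch1 and Dtx1) summed to 149, 214, 886 and 586 CPM in the same order, but did not move together. Among non-cycling cells Cd44 was 15.4, 24.6, 5.37 and 1.32 CPM, and was thus lower in both leukemias. Notch1 was 64.0, 127, 528 and 291 CPM in these cells. Il2ra was 40.4, 30.3, 365 and 201 CPM and Dtx1 22.8, 13.9, 474 and 205 CPM, so neither was higher in PL than in WT. The part of either list in the differences was not tested.

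To ask where within a thymus the complex is expressed, cells were grouped by whether Cd4 and whether Cd8a or Cd8b1 were detected, the coreceptors gained during thymocyte development, and by detection of Mki67 or Top2a, which mark cycling cells. Cells without coreceptor numbered 325 in WT, 3328 in PL, 447 in T-ALL#1 and 300 in T-ALL#2, and cells with Cd4 and Cd8 numbered 2325, 219, 2634 and 320. The paper reports reduced Cd4 and Cd8a mRNA in preleukemic thymocytes and relates the lower CD4 to TAL1. It still found preleukemic cells in clusters of the stage that normally holds both coreceptors. The groups thus read coreceptor transcripts, which Tal1 may itself affect, and need not match stages in PL. Cycling cells made up 20.6%, 23.8%, 47.9% and 61.9%. A cell without a UMI may still express the gene, and cycling cells were deeper, with medians of 9866.5 against 3280 UMIs in WT, 12890 against 4316 in PL, 18481 against 4788 in T-ALL#1 and 22654 against 11194 in T-ALL#2. In T-ALL#2 cells without coreceptor were likewise deeper than those with Cd4 and Cd8 (21168 against 10492 UMIs), as they were in T-ALL#1 (15892 against 5461.5), and the reverse held in PL (4251.5 against 6574). The median mitochondrial share lay between 4.33% and 5.82% in each of these groups.

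**Figure D2:**
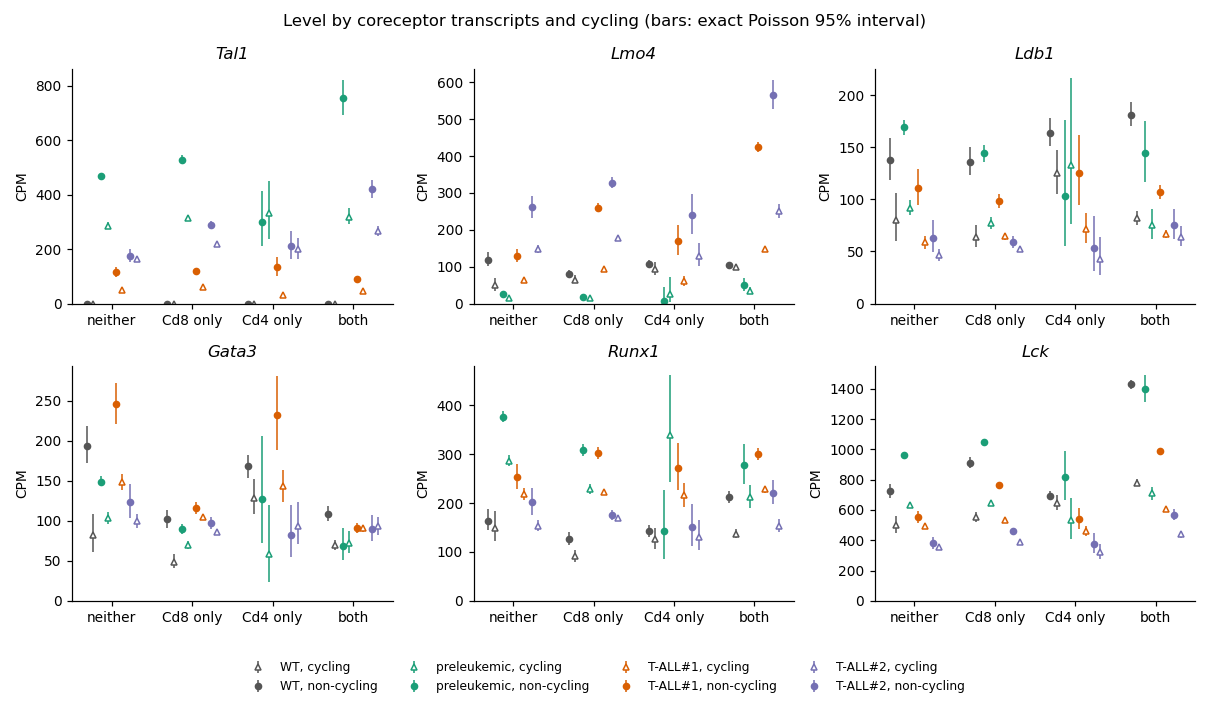
Levels of Tal1, Lmo4, Ldb1, Gata3 and Runx1 and Lck in CPM by coreceptor group (horizontal axis), with open triangles for cycling and filled circles for non-cycling cells of each library and exact Poisson 95% intervals as bars. Circles mostly lie above triangles, with Gata3 in PL (72.6 cycling against 68.4 non-cycling) and T-ALL#2 cells with Cd4 and Cd8 and the few cells with Cd4 alone as exceptions, and Lmo4 of both leukemias is higher with Cd4 and Cd8 than without coreceptor.

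Cycling cells held less Tal1 than non-cycling cells in each transgenic library. Tal1 stood at 302 against 499 CPM in PL, 54.3 against 106 in T-ALL#1 and 214 against 293 in T-ALL#2. Lmo4 was 88.9 against 101 CPM in WT, 16.5 against 23.7 in PL, 106 against 324 in T-ALL#1 and 179 against 354 in T-ALL#2. Ldb1 was 82.4 against 162 CPM in WT, 83.1 against 158 in PL, 64.7 against 104 in T-ALL#1 and 52.3 against 61.7 in T-ALL#2. Lmo4 in T-ALL#1 thus had the widest of these gaps (3.06-fold). Gata3 was 72.1 against 131 CPM in WT, 83.6 against 124 in PL, 106 against 117 in T-ALL#1 and 89.4 against 98.8 in T-ALL#2. Runx1 was 127 against 170, 252 against 346, 223 against 297 and 164 against 185 CPM in the same order. Gata3 had the narrowest gap in either leukemia (1.10-fold in both). All of these values are in CPM, where the median gene was also lower in cycling cells (log2 difference -0.20 without TMM normalization).

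The test of this contrast used UMIs summed per library and cell group in the 3 transgenic libraries, with the library as a block, in the quasi-likelihood test of edgeR, adjusted over all 11807 genes by the Benjamini-Hochberg method. It called 22.2% of genes higher and 21.3% lower in cycling cells. Of the 6 members tested, 0 rose and 4 fell in cycling cells. Tal1 fell by 0.55 on the log2 scale (SE 0.122, edgeR adjusted p = 0.0125), Lmo4 by 0.90 (SE 0.208, adjusted p = 0.0143), Ldb1 by 0.46 (SE 0.118, adjusted p = 0.0207) and Lmo2 by 1.57 (SE 0.399, adjusted p = 0.0197). The Lmo2 call rests on few UMIs in the leukemias. In cycling against non-cycling cells it had 46 against 137 UMIs in PL, 10 against 16 in T-ALL#1 and 2 against 8 in T-ALL#2. Cells with B cell or myeloid markers, with 6 of the Lmo2 UMIs in T-ALL#1 and 5 in T-ALL#2, were not left out. Gata3 had a log2 difference of -0.12 (adjusted p = 0.398 in edgeR) and Runx1 of -0.19 (adjusted p = 0.195). The members' median was -0.51, against -0.04 over all genes. Without TMM normalization the split over all genes was 1965 higher and 3631 lower in place of 2626 and 2518. Lck, the gene of the transgenes' promoter, did not pass, with a difference of -0.35 (edgeR adjusted p = 0.0659).

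The calls for these 4 genes changed with the fit and with fewer libraries. Without the library block 0 members passed in edgeR, with adjusted p up to 0.784 for Tal1, 0.632 for Lmo2, 0.689 for Lmo4 and 0.372 for Ldb1 over the alternatives tried. Without T-ALL#1, Lmo2 alone passed, without PL Tal1, Lmo2 and Lmo4 did, and without T-ALL#2 Tal1, Lmo2 and Ldb1 did. Lmo4 also lost its call with groups read on cells thinned to 2000 UMIs and with WT added, where Tal1, Lmo2 and Ldb1 passed. It passed in 7 of 12 alternatives. Each of the 4 kept its direction under every alternative. Among the other genes of the complex, 14 were tested. Of them 1 rose in cycling cells, beside 22.2% of all genes, and 3 fell, beside 21.3%. Cbfb, the partner of the RUNX factors, rose (log2 0.74, edgeR adjusted p = 0.0061). Runx2 (-1.77, edgeR adjusted p = 0.00332), Runx3 (-0.88, adjusted p = 0.0171) and Ssbp2 (-0.71, adjusted p = 0.00408) fell.

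**Figure D3:**
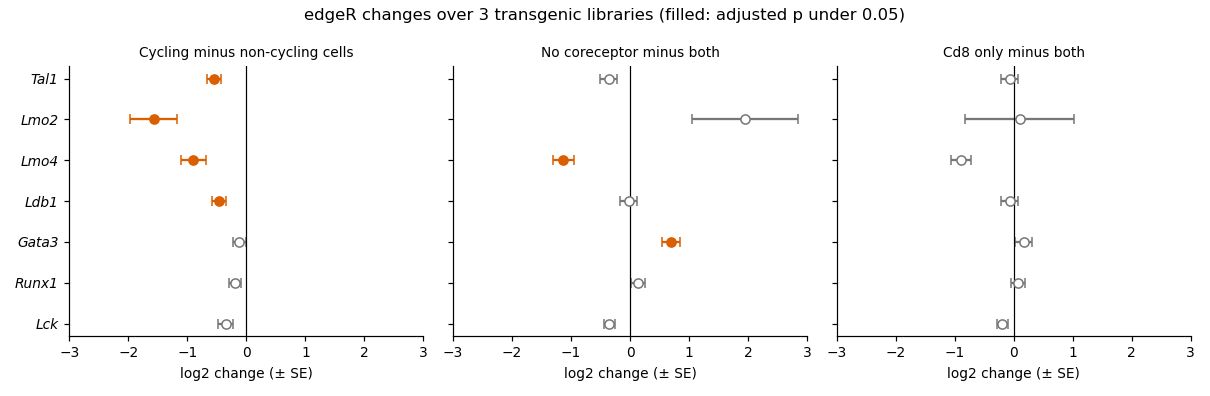
Log2 differences of the 6 members tested and Lck between cell groups in the 3 transgenic libraries, from the edgeR fits with the library as a block, with standard errors as bars and filled points for adjusted p under 0.05. For cycling minus non-cycling cells all 6 members lie below 0, 4 of them filled, and for cells without coreceptor minus cells with Cd4 and Cd8 Lmo4 lies at -1.13 and Gata3 at 0.69.

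Lmo4 also differed between the coreceptor groups. Between cells without coreceptor and cells with Cd4 and Cd8 it was 97.4 against 102 CPM in WT, 22.8 against 39.0 in PL, 77.4 against 247 in T-ALL#1 and 168 against 354 in T-ALL#2. The groups thus differed in the 3 transgenic libraries, by 1.72-fold, 3.18-fold and 2.11-fold, and by less than the counting error in WT (ratio 0.955, 0.819 to 1.11). Gata3 had the opposite pattern, with 159 against 87.6 CPM in WT, 133 against 71.2 in PL, 167 against 90.7 in T-ALL#1 and 104 against 92.3 in T-ALL#2. The ratio was 1.81 to 1.86 in the first 3 libraries and 1.13 (0.994 to 1.28) in T-ALL#2. Tal1 was 400 against 460 CPM in PL, 62.8 against 62.8 in T-ALL#1 and 165 against 317 in T-ALL#2, so the leukemias did not share a pattern. Among non-cycling cells alone Tal1 was 467 against 755 CPM in PL, 116 against 90.2 in T-ALL#1 and 175 against 419 in T-ALL#2.

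In the edgeR fit of the coreceptor groups, 1.58% of 11224 genes were higher and 1.77% lower in cells without coreceptor than in cells with Cd4 and Cd8. Of 6 members tested, 1 rose and 1 fell. Gata3 rose by 0.69 on the log2 scale (SE 0.150, edgeR adjusted p = 0.023) and Lmo4 fell by 1.13 (SE 0.176, adjusted p = 0.00336). Tal1 had a difference of -0.36 (edgeR adjusted p = 0.258), Lmo2 of 1.95 (adjusted p = 0.329), Ldb1 of -0.02 (adjusted p = 0.985) and Runx1 of 0.13 (adjusted p = 0.687), and the members' median was 0.06 against 0 for all genes. With fewer libraries both calls could be lost while their directions held. Lmo4 had -0.89 without T-ALL#1 (edgeR adjusted p = 0.126), -1.20 without T-ALL#2 (adjusted p = 0.0562) and -1.30 without PL (adjusted p = 0.000195). Gata3 had 0.55 without T-ALL#1 (edgeR adjusted p = 0.373), 0.65 without PL (adjusted p = 0.112) and 0.90 without T-ALL#2 (adjusted p = 0.0279). Without the block 0 members passed in edgeR. Tal1 passed in 1 of 11 alternatives, with groups read on cells thinned to 2000 UMIs, as lower in cells without coreceptor (edgeR adjusted p = 0.0167). In that setting 1742 of 11436 genes were called higher and 1306 lower. Lmo2 also passed in 1 of 11, as higher without PL (edgeR adjusted p = 0.0369). Of the 14 other genes of the complex tested, Runx2 (log2 2.64, edgeR adjusted p = 0.00384), Lyl1 (2.09, adjusted p = 0.0132) and Runx3 (0.95, adjusted p = 0.013) rose and Ssbp2 fell (-1.21, adjusted p = 0.000546). Without T-ALL#1, Lyl1 alone passed among them.

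Between cells with Cd8 alone and cells with Cd4 and Cd8, edgeR called 0% of 11224 genes higher and 0.107% lower, and 1083 genes had an unadjusted p under 0.05. Of the 6 members tested 0 passed in edgeR, 1 (Lmo4) had an unadjusted p under 0.05, and the same 1 passed in DESeq2. Lmo4 stood at 73.8 against 102 CPM in WT, 15.7 against 39.0 in PL, 132 against 247 in T-ALL#1 and, in T-ALL#2, 215 against 354. It was lower in cells with Cd8 alone in all 4 libraries, with a log2 difference of -0.89 (SE 0.171, edgeR adjusted p = 0.101) that passed in 4 of 11 alternatives, where the adjusted p ran from 0.00359 to 1.00. Ssbp2 was the 1 other gene of the complex called (log2 -0.83, edgeR adjusted p = 0.0424).

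Since the proximal Lck promoter drives the transgenes, Tal1 was also read per Lck UMI. Lck has 2 annotated starts that 3′ UMIs do not tell apart, so its UMIs do not measure the output of the proximal promoter alone. There were 0.486 Tal1 UMIs per Lck UMI in PL, 0.109 in T-ALL#1 and 0.576 in T-ALL#2. By this measure T-ALL#2 stood above PL, in contrast to its CPM, and Lck itself was lower there, at 406 CPM against 843 (895 in WT and 629 in T-ALL#1). Over the 8 groups by coreceptor and cycling, the ratio ranged from 0.369 to 0.625 in PL, from 0.0655 to 0.247 in T-ALL#1 and from 0.458 to 0.736 in T-ALL#2. The groups with Cd4 alone were small, with 11 and 17 cells in PL, 62 and 50 in T-ALL#1 and 23 and 24 in T-ALL#2. Without them the ratio ranged from 0.450 to 0.539 in PL and from 0.0788 to 0.210 in T-ALL#1, and its range in T-ALL#2 was the same.

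Detection of the members in the same cell was read on cells thinned to 2000 UMIs, where 5 members and Lck gave 15 pairs in each transgenic library and, without Tal1, 10 in WT. The mean number of the 7 members detected in a cell was 0.847 in WT, 1.52 in PL, 1.20 in T-ALL#1 and 1.34 in T-ALL#2. Tal1, Ldb1, Gata3 and Runx1 were found together in 1.49%, 0.247% and 0.203% of cells of the transgenic libraries. Tal1 and Runx1 had odds ratios of co-detection of 1.23 (1.10 to 1.37) in PL, 1.5 (1.28 to 1.75) in T-ALL#1 and 1.30 (1.06 to 1.60) in T-ALL#2, and 1.23, 1.44 and 1.30 within the 8 cell groups. At 1000 UMIs the 95% interval of the odds ratio ran from 0.890 to 1.14 in PL, from 0.986 to 1.57 in T-ALL#1 and from 1.09 to 1.93 in T-ALL#2, so at the lower depth the interval included 1 in PL and T-ALL#1 and not in T-ALL#2. Tal1 and Lmo4 were detected together more often than the product of their shares in T-ALL#2 (17.5% against 14.5% of cells, odds ratio 1.71, 1.41 to 2.07), and the odds ratio was 1.12 in PL and in T-ALL#1, with intervals that include 1. The odds ratios of Tal1 with Ldb1 (1.07 to 1.14) and with Gata3 (1.03 to 1.10) had intervals that included 1 in each library. Lmo4 and Gata3 had 1.48 in WT, 1.51 in PL and 1.33 in T-ALL#2 but 0.793 (0.678 to 0.926) in T-ALL#1. These readings also changed at 1000 UMIs. There Tal1 with Ldb1 in PL (1.04 to 1.41) and Tal1 with Lmo4 in T-ALL#1 (1.01 to 1.61) had intervals above 1. Lmo4 with Gata3 had intervals of 0.776 to 1.57 in WT, 0.865 to 2.49 in PL, 0.626 to 1.00 in T-ALL#1 and 0.915 to 1.92 in T-ALL#2. Tal1 with Lck gave 1.60 in PL and 1.15 and 1.12 in the leukemias. Other pairs at 2000 UMIs, in PL, T-ALL#1 and T-ALL#2, were Runx1 with Lck at 1.34, 1.26 and 0.990 and Lmo4 with Lck at 0.574, 1.74 and 1.43. Lmo4 with Ldb1 gave 1.06, 1.31 and 1.53 in the same order. Odds ratios of the size seen for Tal1 and Runx1 were thus also found with Lck, which is not a member. Cells of a library are not replicates, so these intervals cover sampling of cells only.

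**Figure D4:**
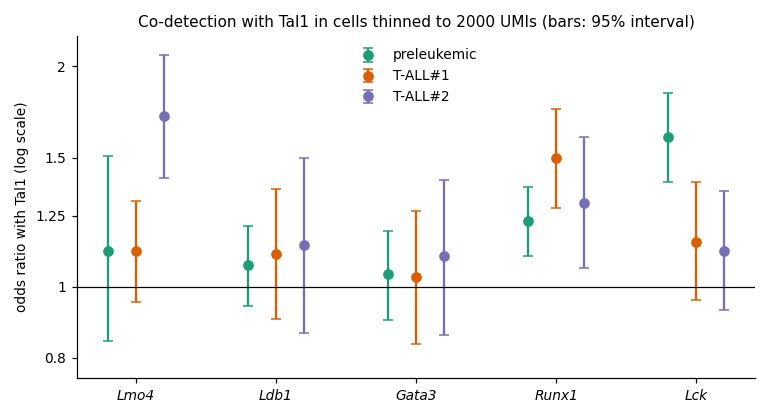
Odds ratios of detecting Lmo4, Ldb1, Gata3, Runx1 or Lck in the same cell as Tal1, on cells thinned to 2000 UMIs of the 3 transgenic libraries, on a log axis with 95% intervals as bars. Runx1 lies above 1 in each library, at 1.23, 1.5 and 1.30, and the intervals of Ldb1 and Gata3 include 1.

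Over the 22 sums of transgenic cells by library, coreceptor group and cycling that held at least 20 cells, the genes whose log2 levels ran most like each member were listed among 5573 genes. The sums share 3 libraries and their depths, so these Pearson correlations are descriptions. Tal1 ran most like Rps27 (0.936), Selenop (0.932) and Tsc22d3 (0.918), and Lmo4 like Ace (0.925), Foxb1 (0.914) and Tmem160 (0.913). Ldb1 ran most like Tet3 (0.971), Sp100 (0.969) and Zer1 (0.966), Runx1 like Ramp1 (0.955), Trim56 (0.952) and Pnisr (0.951), and Gata3 less closely like Izumo1r (0.829), Irak1 (0.773) and Capns1 (0.738). With each library centred on its own mean, which leaves differences among cell groups, the leading genes were Gimap8 for Tal1 (0.925), Lipa for Lmo4 (0.933), Ube2r2 for Ldb1 (0.961), Cpa3 for Gata3 (0.896) and Xpa for Runx1 (0.916), so the leading genes were other ones in each case. Between members, Ldb1 and Runx1 had 0.908 over all sums and 0.823 within libraries, and Tal1 and Ldb1 had 0.334 and 0.791.

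Tal1 was also read in the barcodes left out by the filters. In barcodes with 10% or more mitochondrial UMIs it stood at 831 CPM in PL, 114 in T-ALL#1 and 1091 in T-ALL#2, each above the 410, 68.3 and 234 CPM of the kept cells. Lck in the same barcodes was 1188 against 843 CPM in PL, 652 against 629 in T-ALL#1 and 403 against 406 in T-ALL#2. WT had 0 Tal1 UMIs in each class of barcodes. Among kept cells of T-ALL#2 Tal1 was 303 CPM under a mitochondrial share of 3%, 209 from 3% to under 5% and 271 from 5% to under 10%, with no steady course.

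**Figure D5:**
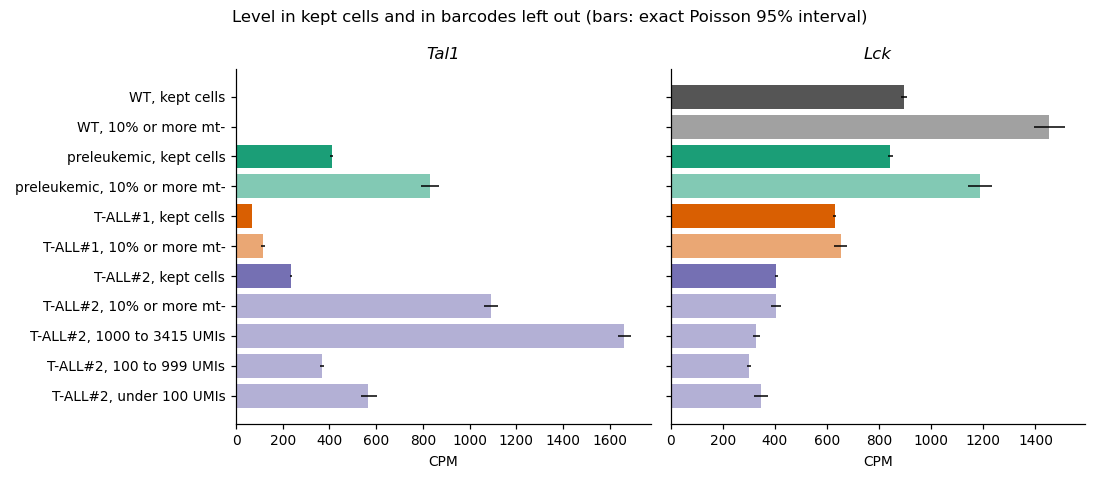
Tal1 and Lck levels in CPM (bars from 0) in kept cells, in barcodes with 10% or more mitochondrial (mt-) UMIs and, for T-ALL#2, in barcodes below the UMI limit, with exact Poisson 95% intervals as lines. Tal1 of barcodes with 10% or more mitochondrial UMIs is 831 and 1091 CPM in PL and T-ALL#2, above the kept cells at 410 and 234 CPM.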

How the data were processed

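Thymocytes were sorted as viable singlets and sequenced on the 10x Genomics platform. The deposited matrices hold counts, the UMIs of each gene in each barcode, which the authors did not normalize, and per the file headers they come from Cell Ranger 3.0.2 (WT, preleukemic and T-ALL#1, called cells) and 4 (T-ALL#2, all barcodes). Per the labels the build was mm10. Several versions of the 3′ kit are named in the labels, none tied to a library, so chemistry and library cannot be told apart. Gene positions are from GENCODE M21, which holds 30934 of the 31053 identifiers.

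Cells were kept by the study's limits on genes and mitochondrial UMIs, while the depth limit of T-ALL#2 was set here. No upper limit on genes was set, so doublets were not removed, and the mean plus 3 SD was tried as a limit. UMIs summed per library and cell group were tested with edgeR 4.0.16 in R 4.3.3 (genes passing filterByExpr, TMM factors, robust quasi-likelihood fit, adjusted p under 0.05). The library was a block because the groups compared come from the same animals. There were 2 residual degrees of freedom in the cycling fit and 6 in the coreceptor fit. Each library is 1 mouse, and both leukemias are separate mice. On simulated counts the cycling fit found 79% of genes changed by 1 and 100% of those changed by 2 on the log2 scale, and the coreceptor fit 59% and 99%. These were 100 genes of each size, drawn from the better counted ones and with a set spread between sums. The shares need not hold for genes with few UMIs such as Lmo2. DESeq2 1.42.0 was an alternative.

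All 7 members were named, and the 18 other genes of the complex where past 2-fold or the threshold. For likeness, the 3 genes with the highest correlation of log2(CPM + 1) were taken for members with a mean of 10 CPM and genes with 20 CPM, and Lck was added for its promoter. Members, lists and groups were chosen with earlier results of these data known. Shares carry exact Clopper-Pearson intervals.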

Additional observations from a re-analysis of the deposited data

Results flagged for a closer look

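Tal1 signal was also present in barcodes that entered no comparison, while WT held 0 Tal1 UMIs in each such class. In PL it stood at 831 CPM in barcodes with 10% or more mitochondrial UMIs and at 692 CPM in those with 500 genes or fewer. In T-ALL#1 the same classes held 114 and 73.5 CPM, and the second value covers the 68.3 CPM of the kept cells within its interval (49.6 to 105). In T-ALL#2 they held 1091 and 139 CPM, the latter from 2 UMIs in 4 barcodes. T-ALL#2 barcodes under 100 UMIs held 567 CPM, those with 100 to under 1000 UMIs 366 CPM and those from 1000 UMIs up to the limit for a cell 1662 CPM, where the median mitochondrial share was 43.4%. Lck stood at 302 to 347 CPM in these last 3 classes, against 406 CPM in kept cells. The part that free RNA or damaged cells have in these levels was not tested.

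In 3 contrasts of cell groups, every library of one of the study's groups moved opposite to every library of another with counting intervals that exclude 1, and the difference between them was not tested. Ldb1 in cells without coreceptor was 1.44-fold its level in cells with Cd4 and Cd8 in PL, while T-ALL#1 had 0.852-fold and T-ALL#2 0.726-fold. Runx1 in cells with Cd8 alone was 0.649-fold its level in cells with Cd4 and Cd8 in WT and 1.14-fold in PL. Among non-cycling cells, Runx1 without coreceptor was 0.772-fold that with Cd4 and Cd8 in WT and 1.36-fold in PL. Cells with Cd4 and Cd8 numbered 2325 in WT and 219 in PL, at median depths of 2946 and 6574 UMIs. In other contrasts the opposite directions did not hold for both leukemias. Tal1 in cells with Cd8 alone over cells with Cd4 and Cd8 was higher in T-ALL#1, at 1.17-fold, and lower in PL and T-ALL#2, at 0.904-fold and 0.749-fold. For cells without coreceptor over cells with Cd4 and Cd8 among non-cycling cells, Tal1 was likewise higher in T-ALL#1, at 1.29-fold, and lower in PL and T-ALL#2, at 0.619-fold and 0.418-fold. Runx1 without coreceptor over both was 1.47-fold in PL and 0.890-fold in T-ALL#1, while the interval of T-ALL#2 (0.926-fold) includes 1.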

How the results depend on the processing

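Over the alternatives, 163 of the members' log2 differences kept direction and side of the threshold, 18 lost the threshold, 8 passed it and 14 reversed, all 14 of them values that had not passed. Reversed were Gata3 in cycling cells within cells with Cd4 and Cd8 (0.16), and, without coreceptor against both, Ldb1 without the replicate block (0.04), without leukemic replicate 1 (0.05) or 2 (0.15; -0.25 without PL) and in non-cycling cells (0.12), and Runx1 without PL (-0.07, up to 0.24 without leukemic replicate 1). For Cd8 alone against both they were Tal1 (0.10; -0.24 without leukemic replicate 1) and Ldb1 (0.04; -0.18 without PL) without leukemic replicate 2, Lmo2 in DESeq2 (-0.14), without PL (-1.01; 0.37 without leukemic replicate 1) and with thinned groups (-0.84), and Runx1 with WT added (-0.05), without PL (-0.01) and with thinned groups (-0.08). The cause was not tested. Lmo2 could not be fitted for cycling within cells with Cd4 and Cd8.

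Without the replicate block, edgeR called 367 genes for cycling, 3 for no coreceptor and 1 for Cd8 alone, in place of 5144, 376 and 12. Leaving out 1 library gave 2516 to 5405 genes (lowest without T-ALL#1), 56 to 2750 and 1 to 1668. Cycling called 3273 genes within cells without coreceptor. With WT added, no coreceptor gave 709 and Cd8 alone 34, and with thinned groups they gave 3048 and 775. Cd8 alone gave 48 in DESeq2, 66 over all genes with a UMI and 94 in non-cycling cells. Members past 2-fold lower in both leukemias than in PL were 0 at a 10 CPM minimum and 2 for each leukemia alone (T-ALL#1 Tal1 and Lmo2, T-ALL#2 Lmo2 and Ldb1; these and the within-group fits were chosen after seeing the data). Against WT, 2 members were higher with TMM, with equal weight per cell and without leukemic replicate 1 (Tal1 and Lmo4; range 1 to 2), and 1 was lower without leukemic replicate 1 (Ldb1; range 0 to 1).

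Depth limits Lmo1 and Lmo2 most, at 0 to 11 and 10 to 183 UMIs a library. With 1 WT and 1 preleukemic mouse, the spread between animals of these groups is not known.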
